A study of Mus musculus with 11 samples.

Results

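Chromosome 3 is the mouse autosome on which the fewest Xist-associated regions per megabase were called in 5 of 6 lists, and nearly the fewest in the other one. Its members are all peaks that 6 deposited lists place on chromosome 3 (genome build mm9), 493 of 19818 peaks in all. The chromosome was chosen by its low peak density, the number of called peaks per Mb in each of the 6 lists. Density is therefore given as a description with no test, and so is every measure that follows from it. The lists come from RNA antisense purification (RAP), in which biotinylated probes against Xist pull down the RNA with the crosslinked DNA beside it, and that DNA is sequenced. They hold female epiblast-like cells (EpiLCs) at day 4 (D4, n = 2) and day 2 (D2, n = 2), female mouse embryonic fibroblasts (MEFs, n = 1) and male MEFs (n = 1). EpiLCs were made from embryonic stem cells kept in LIF with the inhibitors CHIR99021 and PD0325901, then moved to Activin A and bFGF. No group received a further agent, and the labels name no strain or clone. The labels say of the first D4 and the first D2 replicate that they re-analyse earlier deposited data. They do not say whether replicates were separate cultures, so the spread between replicates may be technical.

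Xist is the long noncoding RNA that is transcribed from the X chromosome destined for silencing in female cells and spreads over that chromosome in cis. It works through partner proteins such as SPEN and RBM15 and is followed by Polycomb marks on histones. X inactivation starts as epiblast cells leave the naive state, and fibroblasts keep an X chromosome that is already silent. Male cells normally do not express Xist, so the male MEF list shows background of the pulldown in fibroblasts. All 6 lists cover chromosomes 1 to 19, and the X chromosome was not analysed here, so enrichment of Xist on its own chromosome could not be checked. Read depth is unknown for every library, and the number of peaks that a caller finds grows with depth.

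Chromosome 3 held 17 and 10 peaks in D4 replicates 1 and 2, 249 and 199 in D2 replicates 1 and 2, with 6 for female MEFs and 12 for male MEFs. Over the 146 Mb between its first and last peak of any list, this came to 0.116 and 0.0684 peaks per Mb at D4. The next sparsest autosomes at D4 were chromosome 18 with 0.136 in replicate 1 and chromosome 10 with 0.103 in replicate 2. At D2 the density was 1.70 and 1.36 peaks per Mb, with chromosome 15 next at 1.98 in replicate 1 and chromosome 8 next at 1.97 in replicate 2. Male MEFs had 0.0821 peaks per Mb on chromosome 3 and 0.0955 on chromosome 2, the next lowest. Female MEFs had 0.0411, above only chromosomes 10 and 19, which held no peak. These densities chose the chromosome. Its share of the list was 1.09% and 0.871% at D4 and 3.03% and 2.64% at D2, 0.588% for female MEFs and 3.68% for male MEFs. Its part of the summed extent of all autosomes was 6.29%. The 2 D4 shares lay below the 2 D2 shares, and the male share was above all 5 female ones.

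Chromosome 3 was not among the autosomes with the fewest genes by number. The RefSeq table (assembly GRCm38.p6) places 983 protein-coding genes on it, with 7 autosomes holding fewer and 11 holding more. Chromosome 3 is also one of the longer autosomes by extent. Chromosomes 4, 5, 6 and 7, with extents of 144 to 149 Mb, held more such genes (1328, 1269, 1126 and 2030). Protein-coding genes per Mb were not compared, so the number does not show that the chromosome is dense in genes. Per 100 such genes, D4 replicates 1 and 2 had 1.73 and 1.02 peaks, lower than on each of the 18 other autosomes. At D2 the ratio was 25.3 and 20.2, with 2 autosomes lower in replicate 1 and 1 in replicate 2, chromosome 17 lowest in both. Female MEFs had 0.610 and male MEFs 1.22 peaks per 100 genes, with 2 and 3 autosomes lower. That assembly is not the build of the peaks. Its coordinates were therefore not set against peak positions, and no peak is assigned to a gene here.

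As background on what the chromosome carries, the 27 genes of 4 short lists drawn up for chromosome 3 all lie on it. Among them are Sox2, a core pluripotency factor, Fgf2, a growth factor of epiblast cultures, and Tet2, which oxidises methylated cytosine. The developmental regulators include Shox2, which acts in limb and heart development. Rbm15 encodes one of the Xist partners, and Setdb1 encodes a histone H3 lysine 9 methyltransferase. Fibroblast and matrix genes of the list include Postn, which encodes periostin, Vcam1, an adhesion molecule, and Ccn1 (older symbol Cyr61), a matricellular protein. Gene clusters are also prominent, with 21 of 21 Lce and 14 of 14 Sprr genes of the cornified envelope, 15 of 19 S100 genes of calcium-binding proteins, 6 of 6 Adh and 7 of 7 Amy genes of alcohol dehydrogenases and amylases, 5 of 10 Gbp genes of guanylate-binding proteins, and 11 of 103 histone genes. Whether Xist peaks lie at any of these genes was not examined.

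**Figure D1:**
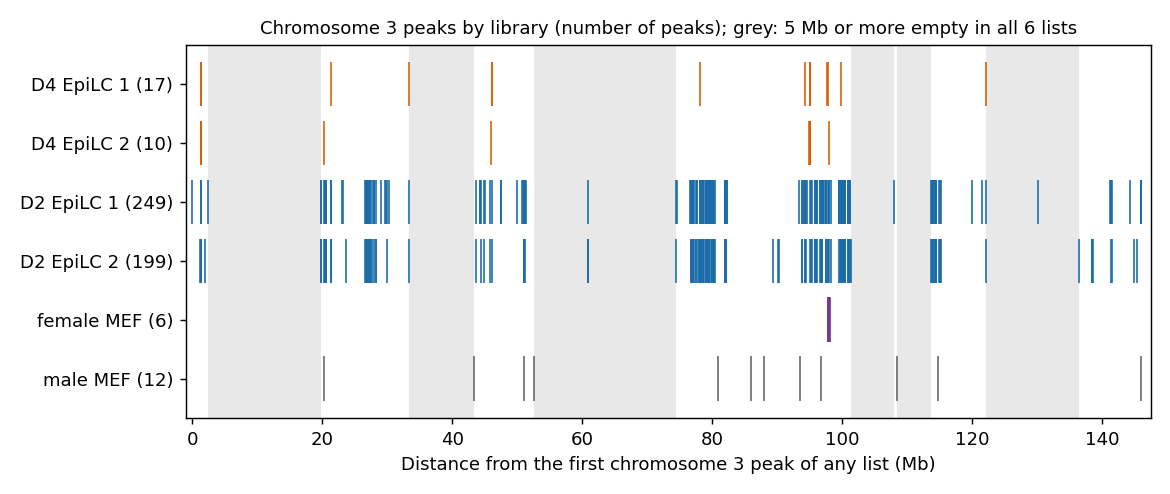
Peaks of chromosome 3 as vertical lines in each of the 6 libraries (rows, number of peaks in brackets), by distance in Mb from the first peak of any list. Grey areas are stretches of 5 Mb or more with no peak in all 6 lists. D2 peaks fall in a few dense groups that both replicates share, the 6 female MEF peaks fall at 1 place, and the 12 male MEF peaks are scattered.

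At D2 the peaks were packed into a few places. In both D2 lists the stretches between 80 and 90 Mb and between 100 and 110 Mb held most of them, with 65 and 87 peaks in replicate 1 and 58 and 63 in replicate 2. These 2 stretches made up 61.0% and 60.8% of the chromosome's D2 peaks and 70.9% and 64.7% of the length under them. On the other autosomes the 2 fullest stretches of 10 Mb held a median of 44.6% and 47.9% of the peaks, and 2 and 5 autosomes were more concentrated than chromosome 3 in replicates 1 and 2. The same 2 stretches held 10 of 17 and 5 of 10 D4 peaks, 6 of 6 female MEF peaks and 3 of 12 male MEF peaks. Of the 1 Mb bins of chromosome 3, only 31.3% and 27.2% held a D2 peak. This was fewer than on any of the 18 other autosomes, whose medians were 40.4% and 40.5%. An occupied bin held 5.41 and 4.98 peaks, against medians of 8.42 and 7.90 elsewhere. Chromosome 3 was thus low in both respects, though chromosome 15 had fewer peaks per occupied bin in replicate 1 (4.92). The median distance of its D2 peaks to the nearest peak was 16.5 and 18.8 kb. This was above the 18 other autosomes in both lists (medians 9.86 and 11.4 kb). The bin values and distances follow in part from the low density that chose the chromosome, so they are a description.

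Linking peaks of either D2 list that lay within 1 Mb of each other gave 25 groups, and 6 of them held at least 10 peaks in both lists. Those 6 spanned 17.4 Mb, or 11.9% of the extent, and held 198 of 249 (79.5%) and 158 of 199 (79.4%) D2 peaks. The group from 83994808 to 87790537 was the fullest, with 54 and 47 peaks over 448 and 285 kb. The group from 100833521 to 105665450 held 49 and 32 peaks over 226 and 121 kb, and the one from 106892155 to 108807825 held 38 and 31 over 354 and 190 kb. Next came 33885584 to 37623418 with 27 and 21 peaks, 121129231 to 122687788 with 17 and 15, and 27179052 to 28707166 with 13 and 12. In each of the 6, replicate 1 had more peaks than replicate 2. Another 8 groups were called in 1 of the D2 lists only and held few peaks. The number of groups depends on the linking distance, which was chosen after the positions were seen.

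The rest of the chromosome was empty at D2 over long distances. Stretches of 5 Mb or more without a peak numbered 9 in each D2 list and summed to 93.4 and 97.1 Mb, or 63.9% and 66.5% of the extent, a larger part than on any of the 18 other autosomes (medians 46.1% and 43.9%). The longest of both lists lay near the start of the chromosome, at 9854759 to 27179051 (17.3 Mb) in replicate 1 and 9347187 to 27179576 (17.8 Mb) in replicate 2. It was not extreme in size, since 7 and 10 other autosomes had a longer one. The next longest shared stretch, at 68299413 to 81875574, was 13.6 Mb long. Joining both D2 lists left 9 empty stretches, which took 57.7% of the extent. No D4 or female MEF peak lay inside any of them, and 5 of the 12 male MEF peaks did. The female MEF peaks all lay at 1 place, and these counts were not made on the other autosomes.

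In the sparser lists nearly all of the chromosome was empty by the same measure. Stretches of 5 Mb or more took 95.2% and 96.9% of the extent at D4. They took 99.9% of it for female MEFs and 95.3% for male MEFs. The longest were 32.05 Mb at D4 replicate 1 (53461177 to 85508048) and 48.9 Mb at D4 replicate 2 (53405983 to 102272991). The female MEF list had one of 97.9 Mb (7365725 to 105280321) and the male MEF list one of 31.1 Mb (122200727 to 153326411). No peak of any list lay in 8 stretches with a summed length of 75.2 Mb, which is 51.5% of the extent and the largest share of the 19 autosomes. Chromosome 5 followed at 44.9% and chromosome 1 at 44.1%. The 8 were 9854759 to 27179051, 40754320 to 50714170, 59984103 to 68230101, 68299413 to 81875574, 108807826 to 115416555, 115921050 to 121129230, 129582229 to 137623201 and 137626724 to 143865447. Since few peaks leave long gaps, these values restate the low density.

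**Figure D2:**
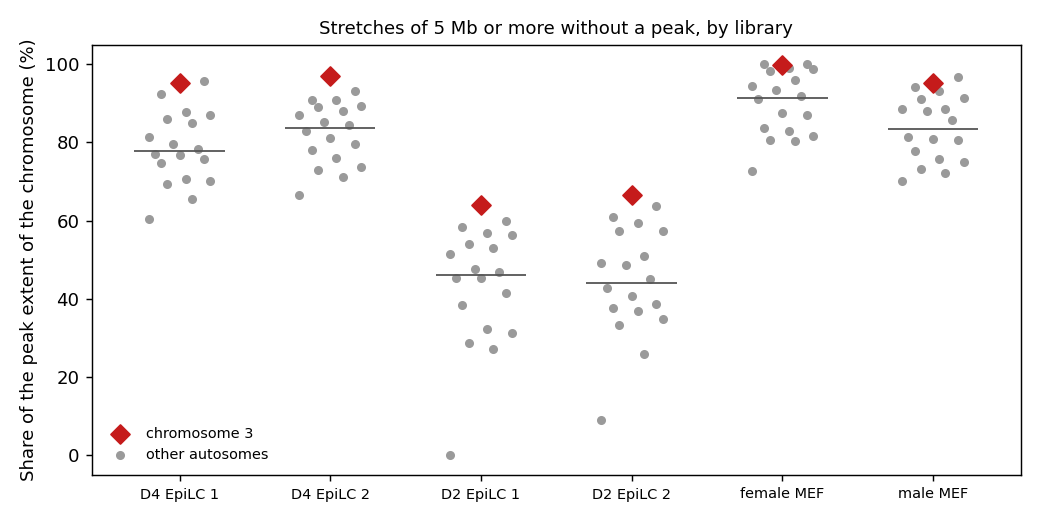
Share of each autosome's peak extent (first to last peak of any list) in stretches of 5 Mb or more without a peak, in percent, by library. Red diamonds are chromosome 3, grey points the 18 other autosomes and bars their median. Chromosome 3 is the highest in both D2 lists, at 63.9% and 66.5%.

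Peaks on chromosome 3 were shorter than elsewhere in the 5 female lists and longer in the male list, and over the 6 lists the difference did not pass the test. Their median length was 1065 and 2168 bp at D4, 3494 and 3447 bp at D2, 3147 bp for female MEFs and 1557 bp for male MEFs. The other autosomes together had 2894 and 2773 bp at D4, 3941 and 3567 bp at D2, 5558 bp for female MEFs and 993 bp for male MEFs. The log2 ratio of the medians was -1.44 and -0.36 at D4, -0.17 and -0.05 at D2, -0.82 for female MEFs and 0.65 for male MEFs, with a mean of -0.37 ± 0.71 (SD, n = 6 lists). An exact sign-flip permutation test over the 6 lists, two-sided, gave p = 0.281, or 0.438 after Benjamini-Hochberg adjustment over the 2 measures tested. The smallest p it can give is 0.0312. The test takes the 6 lists as independent, but the D4 and D2 lists are replicates that may be technical and may share an input. The male list, which shows background, was the only one of opposite sign. Among 19 autosomes, chromosome 3 had the shortest median in D4 replicate 1 and ranked 5 of 19 from the shortest in D4 replicate 2, 3 of 19 in D2 replicate 1 and 12 of 19 in D2 replicate 2. It was the shortest of 17 in female MEFs and ranked 16 of 19 in male MEFs. D4 replicate 1 decided much of the mean, which was -0.15 without it. With only peaks whose −log10 q reached 2 the mean was 0.30, of the opposite sign (exact sign-flip permutation p = 0.312), over 5 lists, since no female MEF peak of the chromosome was that strong. Short peaks were frequent in D4 replicate 1, where 8 of 17 (47.1%) were under 1000 bp, against 17.4% elsewhere. In D4 replicate 2 the shares were 20.0% and 16.9%, and at D2 they were 10.8% and 14.1% on chromosome 3 and 9.95% and 12.5% elsewhere.

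**Figure D3:**
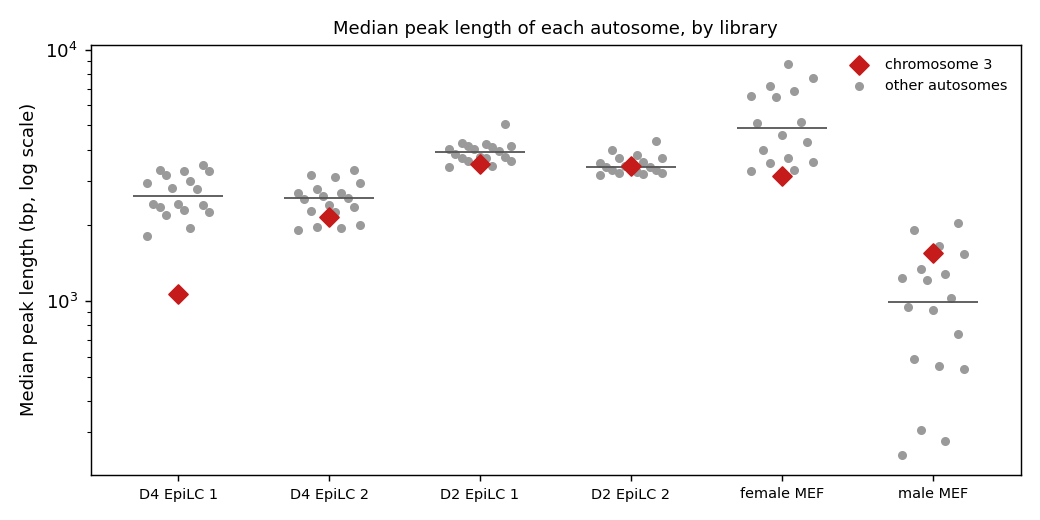
Median peak length in bp (log scale) of each autosome in each of the 6 libraries. Red diamonds are chromosome 3, grey points the other autosomes with a peak and bars their median. Chromosome 3 lies below the bar in the 2 D4 lists, in D2 replicate 1 and in female MEFs, close to it in D2 replicate 2, and above it in male MEFs.

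Long domains made up a small share of the peaks. The longest peak was 8.86 and 12.2 kb at D4, 115 and 102 kb at D2, 17.8 kb for female MEFs and 4.01 kb for male MEFs. D2 peaks of 20 kb or more numbered 17 and 7, or 6.83% and 3.52% of the chromosome's peaks, against 8.52% and 6.17% elsewhere. They still held 37.8% and 26.5% of the length called there. In all, peaks covered 41.3 and 37.0 kb at D4, 1679 and 1072 kb at D2, 36.1 kb for female MEFs and 20.9 kb for male MEFs. This was 0.513% and 0.674% of the length called at D4, 2.18% and 1.93% at D2, 0.260% for female MEFs and 4.29% for male MEFs. The 2 D4 libraries differed less in length covered than in number of peaks.

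Enrichment differed little from that elsewhere. The authors' fold enrichment, the ratio of pulldown to the local background that the caller models, had medians of 2.89 and 2.89 at D4, 2.61 and 2.79 at D2, 2.86 for female MEFs and 2.91 for male MEFs. Elsewhere the medians were 2.82 and 2.85 at D4, 2.61 and 2.80 at D2, 2.90 for female MEFs and 2.91 for male MEFs. The difference averaged 0.01 ± 0.04 (SD, n = 6 lists), and the same exact permutation test gave p = 0.438, adjusted p = 0.438. Yet at D4 the chromosome's median was the highest of 19 in both replicates, where the range over the others was 2.75 to 2.87 and 2.81 to 2.87. The highest values of each list lay on other autosomes, which together hold many more peaks. The strongest peak reached 3.20 and 3.25 at D4, 4.00 and 4.29 at D2, 2.96 for female MEFs and 4.00 for male MEFs, against 12.3 and 9.31 at D4, 14.1 and 11.8 at D2, 6.43 for female MEFs and 15.1 for male MEFs elsewhere. Peaks whose −log10 q reached 2 numbered 2 of 17 and 1 of 10 at D4 (11.8% and 10.0%), where 10.4% and 7.32% did over all autosomes. At D2 they numbered 36 and 26 (14.5% and 13.1%), where 13.3% and 10.4% did over all autosomes. Female MEFs had 0 of 6 and male MEFs 4 of 12 (33.3%, exact 95% interval 9.92 to 65.1%), where 5.10% and 15.6% did over all autosomes. The shares of chromosome 3 in the 4 EpiLC lists were thus close to those of the whole lists.

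Replicates at D2 shared chromosome 3 peaks about as often as elsewhere. Of the 249 replicate 1 peaks, 106 (42.6%, exact Clopper-Pearson 95% interval 36.3 to 49.0%) overlapped a replicate 2 peak by at least 1 bp, where the share over all autosomes was 45.3%. Of the 199 replicate 2 peaks, 121 (60.8%, interval 53.7 to 67.6%) overlapped replicate 1, with 59.3% over all autosomes. Such intervals cover counting error only. On the 18 other autosomes the first share ran from 41.3% to 52.4% and the second from 53.2% to 68.7%. Shared peaks were longer than single ones, with medians of 6747 and 2565 bp in replicate 1 and 4458 and 2273 bp in replicate 2. Their fold enrichment differed little, at 2.62 and 2.60 in replicate 1 and 2.81 and 2.77 in replicate 2. Measured by length, the shared part was 0.294 of the joint length, with 4 autosomes lower and 14 higher (median 0.364). With only peaks whose −log10 q reached 2 the shares were lower on chromosome 3 and over all autosomes alike. They were 10 of 36 in replicate 1 (27.8%, with 25.1% over all autosomes) and 10 of 26 in replicate 2 (38.5%, with 36.5% over all autosomes).

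The segments covered in both D2 lists, called D2 consensus regions here, numbered 128 on chromosome 3 of 4885 in all, over 625 kb. Their median length was 2544 bp, against 3030 bp elsewhere. Most of them, 112, were under 10 kb and 5 were 20 kb or more. The longest was at 8660627 to 8756852 (96.2 kb), in the first occupied megabases of the chromosome. The next were 87577230 to 87607780 (30.6 kb), 87334503 to 87360783 (26.3 kb), 107695936 to 107720440 (24.5 kb) and 89383556 to 89405119 (21.6 kb). Apart from the first, these long regions were weakly enriched, with fold enrichments of 2.45 to 2.65 in replicate 1 and 2.66 to 2.78 in replicate 2. The fold enrichments of a region, here and below, are those of the whole peaks it was cut from.

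The consensus regions with the highest fold enrichments were mostly short, but those values belong to the whole peaks. First by mean rank was the 346 bp segment at 28704482 to 28704827, with fold enrichments of 3.88 and 3.74 in D2 replicates 1 and 2. The peaks it was cut from were 346 and 4046 bp long. The long region at 8660627 to 8756852 came second with 3.31 and 3.57, and is the exception among the long ones. After it came 37318144 to 37319579 with 4.00 and 3.38, where 4.00 is the highest value of replicate 1. Then followed 53266458 to 53268292 with 3.12 and 4.29, where 4.29 is the highest of replicate 2, and 129577408 to 129582010 with 3.18 and 3.69. Over the 128 regions the fold enrichments of the replicates correlated with Pearson r = 0.558 and Spearman rho = 0.356, against 0.684 and 0.283 over 4757 regions elsewhere. These are descriptions across regions that share their libraries, and regions cut from the same peak repeat its value.

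**Figure D4:**
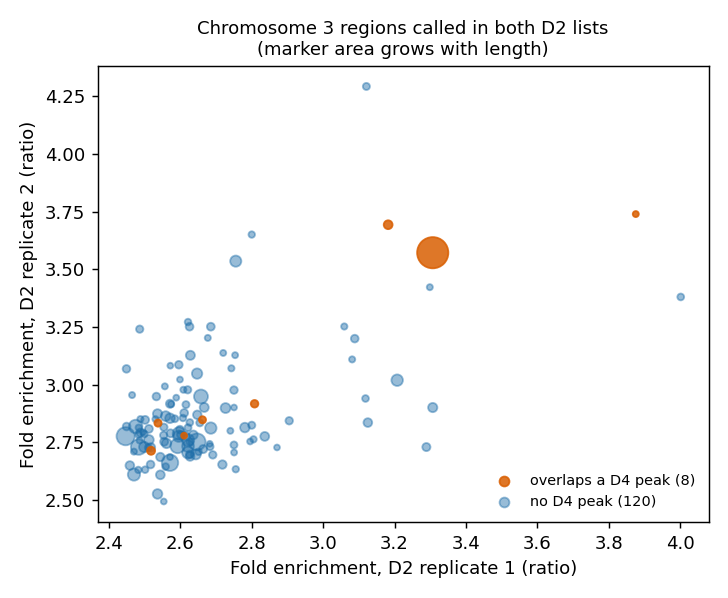
Fold enrichment (ratio) of the 128 chromosome 3 regions called in both D2 lists, replicate 1 on the horizontal and replicate 2 on the vertical axis, with marker area growing with region length. Orange regions overlap a D4 peak (8) and blue ones do not (120). Fold enrichments are those of the whole peaks each region was cut from. Most regions lie below 2.8 in replicate 1, and orange markers occur both above 3 and below 3 on both axes.

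D4 libraries held few of these regions. Chromosome 3 had 13.5 ± 4.95 peaks at D4 and 224 ± 35.4 at D2 (SD, n = 2 each), so D4 had 6.03% of the D2 number. On the other autosomes together the D4 number was 17.5% of the D2 number. The covered length was 39.2 ± 3.00 kb at D4 and 1375 ± 429 kb at D2 (SD, n = 2 each), a share of 2.85%, where the other autosomes had 10.4%. Both differences were larger than the spread between replicates. No test is given, since peak numbers of these lists chose the chromosome and the covered length follows from them. Low shares were not particular to chromosome 3, since chromosome 19 (4.24%) and chromosome 18 (5.21%) had smaller ones and the median of the 18 was 12.2%. With EpiLC lists kept to 1148 peaks each, the total over all autosomes is the same at both days by that setting. Chromosome 3 then had a D4 to D2 ratio of peak number of 0.375 in place of 0.0603.

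Of the 128 D2 consensus regions, 8 overlapped a peak of either D4 list, which is 6.25% (exact 95% interval 2.74 to 11.9%). Over all autosomes the share was 15.6%, and on the other 18 it ran from 4.27% on chromosome 18 to 32.1% on chromosome 15, with 3 autosomes lower than chromosome 3. Counted against segments covered in both D4 lists, 1 of 128 overlapped, next to 3.28% over all autosomes. Joined regions of either D2 list overlapped a D4 peak in 8 of 320 cases (2.50%), where the share over all autosomes was 8.80%. Each of the 18 others had a higher one. Such shares depend on how many D4 peaks a chromosome has, and the low D4 density helped choose chromosome 3. They are therefore a description. Without D4 replicate 1 the count among the 128 was 3, and without D4 replicate 2 it was 6. Elsewhere the regions that overlapped D4 were longer than those that did not, with medians of 7922 and 2613 bp. On chromosome 3 the medians were 2226 and 2599 bp. Fold enrichments of the 8 at D2 had medians of 2.73 and 2.88 in replicates 1 and 2, against 2.62 and 2.81 for the 120 others. These differences were not tested.

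The proximal domain at 8660627 to 8756852 overlapped peaks of both D4 lists. There D4 replicate 1 called 8662221 to 8669684 with a fold enrichment of 3.20 and 8716792 to 8717286 with 3.01. D4 replicate 2 called 8665749 to 8668576 with 3.25, 8713728 to 8715136 with 2.91 and 8732444 to 8735008 with 2.79. In the domain as joined from both D2 lists, 122 kb long, the D4 lists covered 7.96 and 6.80 kb, and the D2 lists 115 and 108 kb. A long domain at D2 thus stood beside short pieces at D4, and the strongest peak of both D4 lists lay within it. Neither MEF list had a peak there.

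The other 7 were each met by 1 D4 library. D4 replicate 1 overlapped the strongest D2 region, with 28704682 to 28704970 at a fold enrichment of 2.89. It also overlapped the regions at 40753911 to 40754210 (D4 peak 40753861 to 40754035, 2.79), 53458557 to 53461058 (53460727 to 53461176, 2.90), 107241751 to 107244998 (107244391 to 107245519, 2.92) and 129577408 to 129582010 (129579739 to 129580693, 3.16). D4 replicate 2 overlapped 27608247 to 27610080 with its peak 27608949 to 27610118 (2.75), and 102410205 to 102412153 with a longer peak described next. The strong D2 regions at 37318144 to 37319579 and 53266458 to 53268292 had no D4 peak.

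A smaller share of D4 peaks met a D2 peak on chromosome 3 than over all autosomes, and the intervals are wide. Such a share depends on how much of a chromosome D2 peaks cover, and the low D2 density helped choose chromosome 3. The shares are therefore a description. Of the D4 replicate 1 peaks, 7 of 17 (41.2%, exact 95% interval 18.4 to 67.1%) overlapped a peak of either D2 list, where the share over all autosomes was 73.0%. In D4 replicate 2 it was 5 of 10 (50.0%, interval 18.7 to 81.3%), with 68.3% over all autosomes. Chromosome 18 was the only one lower in replicate 1, and chromosomes 15, 17 and 18 were lower in replicate 2. In replicate 1, 6 of 10 peaks without overlap lay within 10 kb of a D2 peak. In replicate 2 this held for 0 of 5, whose distances ran from 20.0 to 133 kb. Such distances were not measured on the other autosomes. The D4 lists shared 4 of 17 and 3 of 10 of their chromosome 3 peaks, next to shares of 22.2% and 32.6% over all autosomes. Only 4 segments were covered in both D4 lists, and 1 of them, at 8665749 to 8668576, was also covered at D2. Over all autosomes 83.3% of such segments overlapped a peak of either D2 list and 68.9% a D2 consensus region.

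The remaining 3 shared D4 segments lay together near 102.4 Mb. Linking D4 peaks of either list within 200 kb of each other, a distance chosen after the positions were seen, put 5 of 17 peaks of replicate 1 and 4 of 10 of replicate 2 into the stretch 102272992 to 102502601. The peaks 102407194 to 102407546, 102414577 to 102423437 and 102459140 to 102463083 of D4 replicate 1 had fold enrichments of 2.90, 2.84 and 3.08. They overlapped 102405806 to 102416167 (2.88) and 102452103 to 102464321 (3.05) of D4 replicate 2, which are 10.4 and 12.2 kb long. The longest peak of each D4 list was in this stretch. D4 covered 22.8 and 26.6 kb of its 230 kb, out of 41.3 and 37.0 kb called on the whole chromosome at D4. D2 covered 1.95 and 3.36 kb with 1 peak in each list. MEFs had no peak there. The stretch was bounded by D4 peaks, so its D4 values are a description and support no comparison with D2. Without this stretch the D4 to D2 ratio of peak number was 0.0404.

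**Figure D5:**
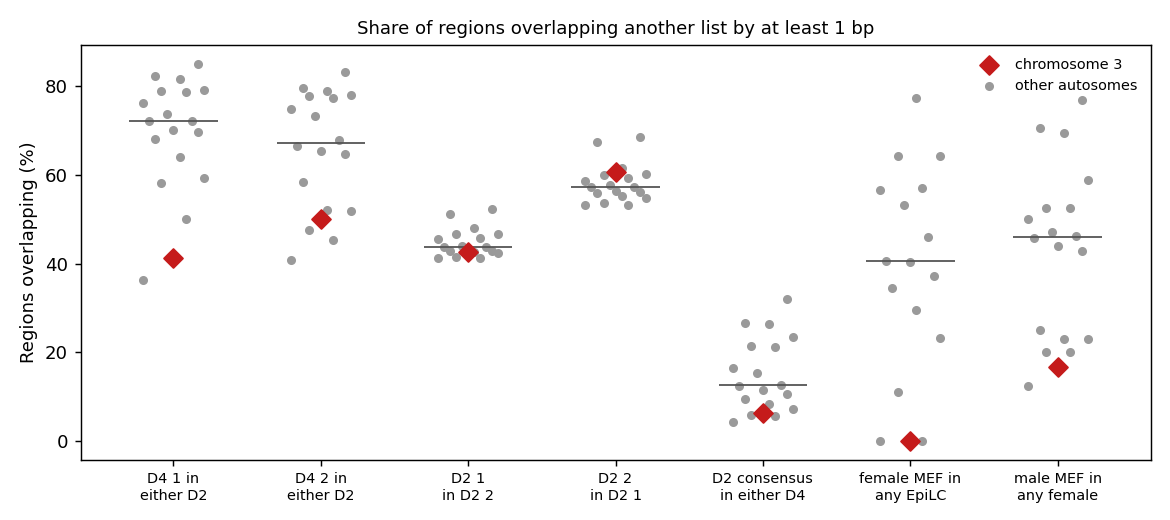
Share of regions (percent) that overlap another list by at least 1 bp, for 7 pairs of lists named on the horizontal axis. Red diamonds are chromosome 3, grey points the other autosomes and bars their median. Chromosome 3 sits near the bar for agreement between D2 replicates and below it for both D4 lists, for D2 consensus regions in D4 and for both MEF lists. Shares of overlap depend in part on peak density, by which the chromosome was chosen.

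In female MEFs all 6 peaks of chromosome 3 lay within 179 kb, from 105280322 to 105458872. No other autosome with female MEF peaks had them in so short a span, the next being chromosome 13 with 15 peaks over 18.8 Mb. Chromosome 3 also had the fewest peaks of these autosomes, and a span tends to shrink with fewer peaks. Chromosome 18, with 9 peaks, spanned 56.3 Mb. The low peak number helped choose the chromosome, so the span is a description. The 6 were 105280322 to 105281800, 105291370 to 105309214, 105362360 to 105372092, 105382308 to 105386895, 105430012 to 105431717 and 105458169 to 105458872. The one starting at 105291370 was the longest (17.8 kb) and the last the strongest, and fold enrichments ran from 2.78 to 2.96. All were weak, with −log10 q between 1.30 and 1.57. This list comes from 1 library and has no replicate check.

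None of the 6 overlapped a peak of another list. Over all autosomes 49.7% of female MEF peaks overlapped an EpiLC peak, 23.9% a D4 peak, 45.4% a D2 peak and 1.67% a male MEF peak. The exact 95% interval of 0 of 6 reaches 45.9%, and a limit set at 3 counts of the total reaches 50.0%, so these few peaks bound the share only loosely. The median of the 16 other autosomes with female MEF peaks was 40.5%, and 2 of them also had no overlap with an EpiLC peak. EpiLC peaks did lie between them. D2 had 2 peaks in the span in replicate 1, over 15.9 kb, and 1 in replicate 2 over 3.50 kb, and D4 replicate 2 had the peak 105372485 to 105373228 with a fold enrichment of 2.79. That D4 peak lay 0.392 kb from the end of the female MEF peak at 105362360 to 105372092. The distances from the 6 female MEF peaks to the nearest D2 peak ran from 8.27 to 29.0 kb. Counted from the D2 side, 0 of 128 consensus regions overlapped a female MEF peak, which allows a share of up to 2.34% by that limit and 2.84% by the exact interval. Over all autosomes 6.96% did, but the median of the 18 others was 1.86% and 5 of them were also at 0, with the highest share on chromosome 4 (29.2%). Of 23 joined D4 regions 0 did (up to 13.0% by the limit and 14.8% by the exact interval), next to 18.6% over all autosomes, a median of 6.53% and again 5 others at 0. Chromosomes 10 and 19, among those at 0, held no female MEF peak, so their 0 was fixed in advance. Chromosomes 1, 13 and 18 held female MEF peaks and were also at 0 in both counts. An overlap of 0 was therefore not peculiar to chromosome 3.

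Male MEF peaks on chromosome 3 were spread out. The 12 lay each in a 1 Mb bin of its own, as male MEF peaks also did on chromosomes 8, 10, 14, 17 and 18. Their median distance to the nearest peak was 4169 kb. On the 18 other autosomes its median was 1394 kb, with 2 of them above chromosome 3. The strongest was at 93359192 to 93360794 with a fold enrichment of 4.00. The longest was at 153326412 to 153330419 (4.01 kb). Of the 12, 2 (16.7%, exact 95% interval 2.09 to 48.4%) overlapped a peak of a female list, where 45.1% did over all autosomes. These were 58454239 to 58454501 (2.91), under a peak of D2 replicate 1, and 104203300 to 104203509 (3.16), under peaks of both D2 lists. Over all autosomes 40.5% of male peaks overlapped a D2 peak and 6.44% a D4 peak. On chromosome 3, 0 of 12 overlapped a D4 peak and none a female MEF peak. Seen from the female lists, 2 of 338 joined regions of chromosome 3 (0.592%) overlapped a male peak, next to 1.20% over all autosomes. For D2 consensus regions it was 1 of 128, next to 1.23%, and for joined D4 regions 0 of 23, next to 0.870%. The male list held no peak below a fold enrichment of 2.86 on this chromosome, while the D2 medians were 2.61 and 2.79, so weaker background could not be compared.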

How the data were processed

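Each of 6 Xist RAP-seq pulldowns has its own peak list, and the 5 input samples gave none used here. The submitters' processing notes name MACS2 2.2.7.1, Bowtie2 2.2.9, bedtools 2.26.0, Trim Galore 0.4.1, SAMtools 1.9 and Picard, and the build mm9. Settings, and the input behind each list, are not given in the sources used here, so D4 and D2 lists may share an input. The authors' fold enrichment is a linear ratio. The deposited significance of a peak is a −log10 q-value beside a −log10 p-value, and the deposited score restates the q-value and was not used. Deposited starts and ends are in bp and are printed counted from 1. Depth is unknown.

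Overlaps (at least 1 bp) and exact sign-flip tests over lists were computed with Python 3.11.15, pandas 2.3.3 and numpy 2.4.6, and checked on simulated intervals. Stretches and densities refer to the extent from the first to the last peak of any list. Named regions are D4 and MEF peaks that overlap another list, the 5 longest and 5 strongest D2 consensus regions, the strongest and longest peak of each list, and empty stretches. The 6 female MEF peaks, the D4 peak beside them and the groups of linked peaks were named after their positions were seen. The chromosome and the gene lists were chosen with earlier results of these data known. GC content, gene overlap and sequences under peaks were not analysed here, since the gene table is on GRCm38.p6, so 2 of 4 planned comparisons with other autosomes were run.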

Additional observations from a re-analysis of the deposited data

How the results depend on the processing

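The D4 to D2 ratio on chromosome 3 stayed below 1 under every alternative run. For peak number it was 0.0603 as reported, 0.0484 with a −log10 q of at least 2, 0.375 with lists of equal number, and 0.0446 to 0.0759 leaving out 1 replicate. For covered length it was 0.0285, 0.0256, 0.159 and 0.0233 to 0.0365. With the replicate number as a block the ratios were 0.0586 and 0.0292. Differences between replicates correlated with r = -0.0570 between the days over 52 bins of the chromosome, so the numbers are not shown to pair libraries. The length difference was -0.37 (log2), -0.43 to -0.15 leaving out 1 EpiLC replicate, and reversed to 0.30 with a −log10 q of at least 2. It was -0.57 in the 5 female lists (exact permutation p = 0.0625, the smallest 5 lists allow). That alternative was chosen after seeing the data, as was leaving out the D4 stretch. The fold enrichment difference was 0.00106 to 0.0167 leaving out 1 replicate.

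Shares moved more. With a −log10 q of at least 2, equal numbers, or 50% of a region covered, agreement at D2 was 27.8%, 34.2% and 22.1% for replicate 1 and 38.5%, 38.2% and 42.7% for replicate 2. D2 consensus regions at D4 were 20.0% (2 of 10), 23.1% (3 of 13) and 1.56% (2 of 128) under the same settings. They were 2.34% to 4.69% leaving out 1 replicate. The share over all autosomes was not computed for these settings. A share of D2 consensus regions below that of all autosomes is therefore shown for the full lists only. D4 peaks at D2 averaged 45.6% over both lists, 100% with that −log10 q (3 peaks), 26.8% with equal numbers and 41.2% to 50.0% leaving out 1 replicate. Overlap of D2 consensus with female MEF peaks was 0% throughout. Overlap of female regions with male peaks was 0% with a −log10 q of at least 2 and with 50% covered. Empty length was 140.4 Mb at D4, 144.8 with a −log10 q of at least 2 and 104.4 only between peaks. At D2 it was 95.3, 124.0 with that −log10 q, 106.1 from 3 Mb and 65.8 from 10 Mb. In female MEFs it was 145.9, 146.1 and 0 between peaks, and in male MEFs 139.2, 146.1, 142.5 from 3 Mb, 114.5 from 10 Mb and 118.9 between peaks. The cause of these shifts was not tested beyond the smaller number of peaks that stricter settings leave. GC content and gene overlap were not run. Unknown depth limits all counts.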
